A study of Homo sapiens with 4 samples.

Results

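The genes described here encode 37 non-collagen proteins of the extracellular matrix: adhesive and matricellular glycoproteins, fibrillins and other elastic fibre proteins, laminins with their nidogen linkers, and proteoglycans. They were taken from the tables by gene symbol, and all 37 were found among the 27940 symbols of the gene tables. The libraries were made with an mRNA kit from bulk RNA of U87, an established human glioma cell line, grown in DMEM with fetal bovine serum. The control group (shNC, 2 libraries) was infected with lentivirus made from the empty FUGW-H1 vector. The series' design text instead calls the control H1-RFP (WT), so the control vector is uncertain. The knockdown group (shPTPRN3, 2 libraries) was infected with lentivirus carrying 1 short hairpin RNA against PTPRN, which encodes a protein of the receptor tyrosine phosphatase family found in the membrane of dense-core vesicles. With 1 hairpin there is no second hairpin to set beside it. The design text calls the libraries of a group biological replicates, but separate infections or cultures are not stated, so a p-value here covers only the spread among the libraries at hand.

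The extracellular matrix is the protein and sugar network that cells secrete and hold on to. Fibronectin is assembled into fibres by pulling through integrins, fibrillins form microfibrils on which elastin is laid down, and laminins, each built of an alpha, a beta and a gamma chain, form the sheet of basement membranes. Nidogens and the heparan sulphate proteoglycans perlecan and agrin bind that sheet to its neighbours. Matricellular proteins such as SPARC, tenascin-C and the thrombospondins alter how cells hold on to the matrix rather than bearing load. In the brain, basement membranes lie around blood vessels and under the meninges, versican and tenascins lie between neural cells, and glioma cells in culture commonly make fibronectin and laminins.

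PTPRN itself stood at 27.6 and 19.8 scaled FPKM in the controls, against 4.96 and 3.62 with the hairpin. FPKM are fragments per kilobase of transcript per 1e6 mapped fragments, and "scaled" means divided by 1 median-ratio factor per library. The log2 fold change of PTPRN was -2.22 (SE 0.34, adjusted p = 0.0594 by limma with Benjamini-Hochberg adjustment), so the targeted gene was lower in both shPTPRN3 libraries and did not pass the adjusted threshold. The target of the hairpin is printed here because it shows whether a member could be matched directly, with all 21 bases in capitals since the whole run was searched. It was found in transcripts of PTPRN and in 0 of the 439 annotated transcripts of the members.
Hairpin target: GGAAGTCTGTATTCAGGATGG
Depth, estimated from the deposited interval widths, ranged from 13.7 to 30.5 M fragments, with shPTPRN3 replicate 1 the deepest. Over the tested genes, log2 values correlated at 0.922 between the shNC libraries and 0.936 between the shPTPRN3 libraries, against 0.847 to 0.924 between groups.

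Most of the expressed members were higher in shPTPRN3 than in shNC, led by SPARC and fibrillin-1 (FBN1), but none passed the test over all genes. Of the 37 members, 27 had a mean of at least 1 FPKM and were tested among 11394 genes. With limma, 0 of the 27 had an adjusted p under 0.05, where 0.421% of all tested genes did. At an unadjusted p under 0.05, 13 members were higher in shPTPRN3 and 0 were lower, where 5.66% of all tested genes were higher and 7.79% were lower at that level. Both shPTPRN3 libraries lay above both shNC libraries for 16 members, against 21.5% of all tested genes. Both lay below for 3 members, FBN2, LAMA3 and VCAN, against 23.1% of all tested genes, and the groups overlapped for the other 8. The median log2 fold change of the 27 was 0.88, from -0.78 for VCAN to 2.42 for SPARC, where the median of all tested genes was -0.01. The members, and the other gene lists further on, were chosen with earlier results of these data known. Their counts and medians set beside all genes are therefore descriptions and no test of the lists. In bulk RNA, fewer cells of a kind and less RNA per cell cannot be told apart, so each level is a mean over the culture.
The median log2 fold change of the members was 0.49 with shNC replicate 1 left out and 0.62 with shPTPRN3 replicate 1 left out. In these fits 1 group has 1 library, which is assumed to vary like the other group. With no filter on low values, which adds the 10 members that were hardly detected, the median was 0.39.

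**Figure D1:**
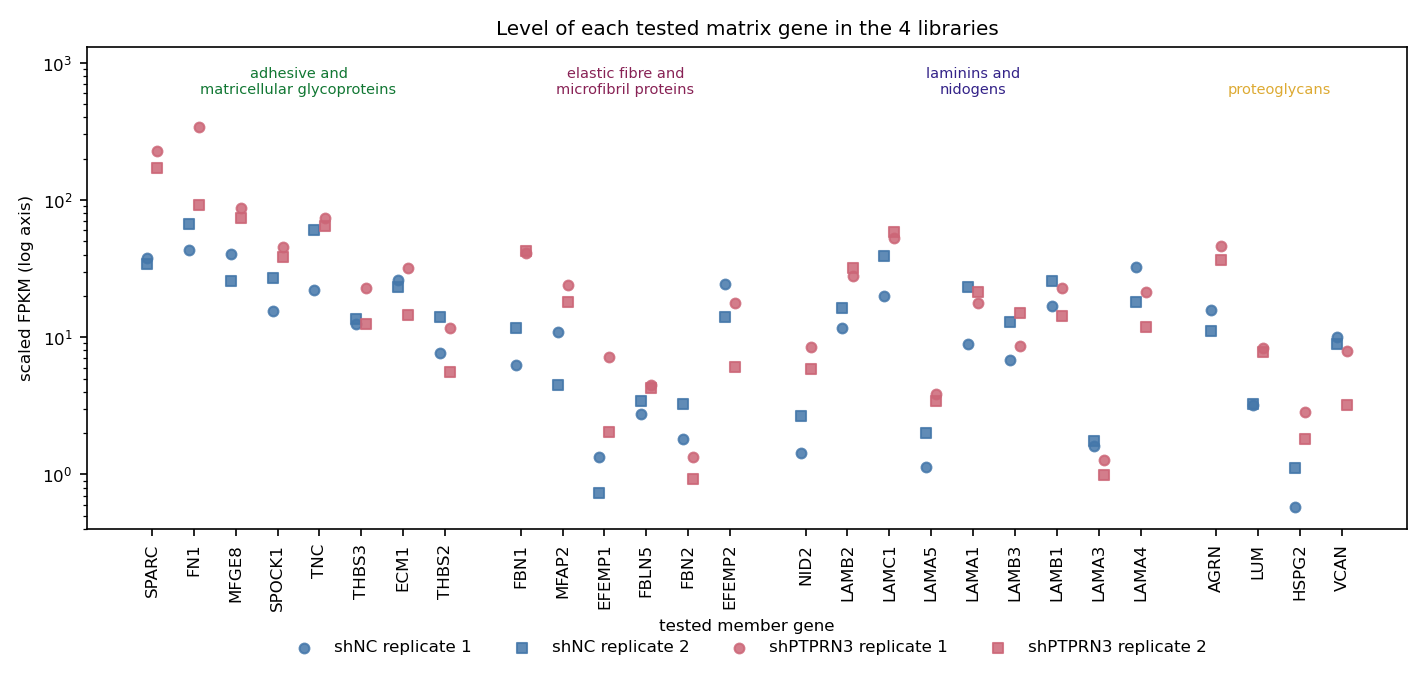
Scaled FPKM of the 27 tested members on a log axis, by family, with 1 point per library (blue shNC, red shPTPRN3, circles for replicate 1, squares for replicate 2). SPARC, FBN1, AGRN and LUM show both red points well clear of both blue ones, while FN1 and EFEMP1 show a wide gap between the 2 red points.

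**Figure D2:**
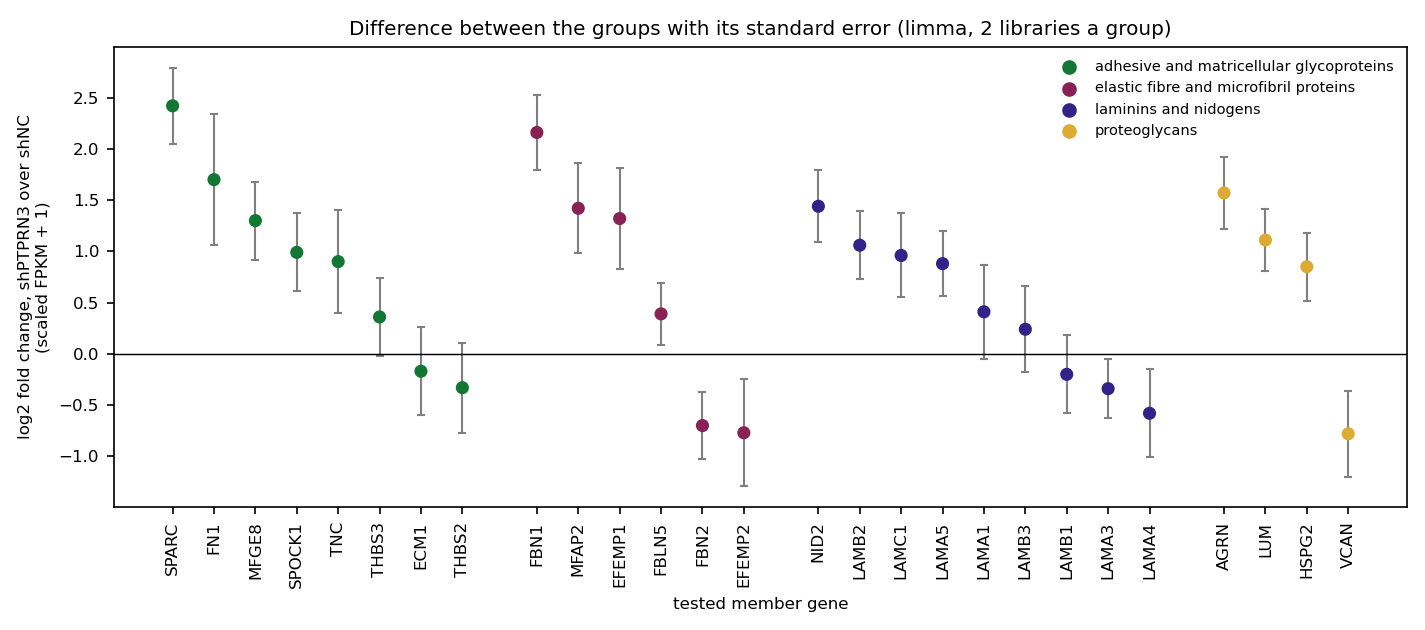
Log2 fold change of each tested member, shPTPRN3 over shNC on the log2(scaled FPKM + 1) scale, coloured by family, with bars of 1 standard error from limma over 2 libraries a group. Every family holds members on both sides of 0, from 2.42 for SPARC to -0.78 for VCAN.

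The stretch of 250 bases just before the start site is shown for the 3 highest and the 1 lowest of the tested members whose RefSeq start lies within 5 bases of the tables' start, to set the sequence beside the values that follow. Promoter sequences are from RefSeq (GRCh38.p14), 5' to 3' on the minus strand, on which all 4 genes lie. The windows are chr5:151686916-151687165 for SPARC, chr2:215436069-215436318 for FN1, chr14:52069060-52069309 for NID2 and chr11:65872801-65873050 for EFEMP2. Capitals mark matches to 5 motifs searched on both strands. The GC box was searched as GGGCGG. The box named for its letters was searched as CCAAT, and the cyclic AMP response element (CRE) as TGACGTCA. The TATA box was searched as TATAAA. The AP-1 core was searched as TGANTCA.
SPARC: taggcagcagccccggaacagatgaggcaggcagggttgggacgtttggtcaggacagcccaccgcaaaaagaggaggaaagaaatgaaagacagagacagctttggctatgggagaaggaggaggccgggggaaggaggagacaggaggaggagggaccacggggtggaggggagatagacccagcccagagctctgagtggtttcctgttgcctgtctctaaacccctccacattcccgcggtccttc
FN1: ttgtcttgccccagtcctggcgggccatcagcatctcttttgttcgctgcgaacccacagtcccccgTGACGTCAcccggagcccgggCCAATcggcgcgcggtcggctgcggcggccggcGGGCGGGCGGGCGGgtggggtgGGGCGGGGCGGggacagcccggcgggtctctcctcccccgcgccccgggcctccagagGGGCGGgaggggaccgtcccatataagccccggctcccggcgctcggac
NID2: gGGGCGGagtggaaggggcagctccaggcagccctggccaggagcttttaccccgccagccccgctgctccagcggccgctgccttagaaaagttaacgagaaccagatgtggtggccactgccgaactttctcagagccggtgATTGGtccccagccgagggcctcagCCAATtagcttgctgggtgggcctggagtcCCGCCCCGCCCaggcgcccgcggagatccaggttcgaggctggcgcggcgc
EFEMP2: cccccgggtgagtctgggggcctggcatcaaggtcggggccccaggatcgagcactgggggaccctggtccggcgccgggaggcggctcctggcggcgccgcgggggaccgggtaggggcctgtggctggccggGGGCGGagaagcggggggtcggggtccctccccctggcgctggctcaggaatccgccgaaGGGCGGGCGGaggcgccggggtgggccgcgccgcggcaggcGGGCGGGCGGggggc
The SPARC window held none of the 5 motifs. The FN1 window held a CRE starting 183 bases before the start site, a CCAAT box at 162 bases and 6 GC boxes, some of them overlapping each other. NID2 had 3 GC boxes and 2 CCAAT boxes, the nearer of the latter 81 bases before the start. EFEMP2 had 5 GC boxes and none of the other motifs. Among all 20 members with a matching window, GGGCGG was present in 17 (85%), against 42.6% of the 35116 RefSeq windows of this length. CCAAT was present in 5 of the 20 (25%), against 32% of all windows. TGACGTCA was found only in the FN1 window (5% of member windows, against 1.65% of all). TATAAA was found only for ECM1 (5%, against 10.7% of all), and TGANTCA for MFAP2 and ECM1 (10%, against 6.57%). No promoter entry was found for AGRN, DCN, EFEMP1, ELN, EMILIN1, LAMA1, LUM, MFAP5 and SPOCK1. The 20 member windows were kept for a matching start site, whereas the 35116 were not filtered by start site or by level. The shares therefore compare unlike sets. These matches describe letters and not binding.

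Of the 9 adhesive and matricellular glycoproteins, 8 were tested and 4 were higher at an unadjusted p under 0.05. The groups did not overlap for 5, all of them higher in shPTPRN3. Among all tested genes, 5.66% were higher at that level and 21.5% had both shPTPRN3 libraries above both controls. SPARC (chr5:151661096-151686915, hg38), a secreted calcium-binding protein that binds collagen, stood at 37.7 and 34.4 scaled FPKM in the controls, against 229 and 170 with the hairpin. Both shPTPRN3 libraries were far above both controls, and the 2 controls differed little. The ratio of the group means was 5.53 (36.1 ± 2.35 against 199 ± 41.3, SD, n = 2). Its log2 fold change of 2.42 (SE 0.37) had an adjusted p of 0.0595 by limma and ranked 18 from the highest of all tested genes. SPARC passed under 5 of 16 alternatives without the replicate block, with adjusted p from 0.027 to 0.238.
Fibronectin (FN1, chr2:215360440-215436070) stood at 43.2 and 66.8 scaled FPKM in the controls, against 341 and 91.6 with the hairpin. Both shPTPRN3 values were above the controls, but replicate 1 alone carried most of the difference: the log2 fold change was 1.70 (SE 0.64) with all libraries and 0.76 without shPTPRN3 replicate 1. In that library the deposited FPKM of FN1 was 358, outside its own deposited interval of 362 to 367. The same held there for SPARC (241, interval 228 to 235), SPOCK1 and TNC, and for 10.6% of all rows of at least 1 FPKM, against 4.43% to 7.93% in the other 3 libraries. The part of this in the values was not tested.
MFGE8, a secreted bridge between integrins and phosphatidylserine on dying cells, stood at 40.1 and 25.5 scaled FPKM in the controls, against 86.8 and 74.1 with the hairpin. The groups were apart, with a log2 fold change of 1.30 (SE 0.38, limma adjusted p = 0.204). SPOCK1 (testican-1), a proteoglycan related to SPARC, was at 15.5 and 26.8 against 45.5 and 38.1, a log2 fold change of 0.99 (0.62 without shNC replicate 1). Tenascin-C (TNC), an anti-adhesive glycoprotein of wounds and gliomas, was at 22.2 and 60.3 in shNC and at 73.8 and 64.9 in shPTPRN3. The difference for TNC thus rested on the low value in shNC replicate 1, without which its log2 fold change was 0.20 instead of 0.90.
The remaining members of the family overlapped between groups. Thrombospondin-3 (THBS3) stood at 12.5 and 13.5 scaled FPKM in the controls, against 23.0 and 12.4 with the hairpin, and thrombospondin-2 (THBS2) at 7.72 and 14.0 against 11.6 and 5.57. ECM1, a secreted glycoprotein that binds perlecan, was at 26.1 and 23.3 against 32.0 and 14.6. For all 3 the sign turned when 1 library was left out. THBS2 also overlaps the uncharacterised gene LOC101929523, at 2.06 to 2.91 FPKM. Periostin (POSTN) was under the filter.

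Of the 11 elastic fibre and microfibril genes, 6 were tested and 3 were higher at an unadjusted p under 0.05, as were 5.66% of all tested genes. Fibrillin-1 (FBN1, chr15:48408306-48645788), the main protein of microfibrils, stood at 6.26 and 11.6 scaled FPKM in the controls, against 41.3 and 42.3 with the hairpin. The 2 shPTPRN3 values nearly coincided, above both controls, at 41.8 ± 0.713 against 8.94 ± 3.78 (SD, n = 2), a ratio of 4.68. The log2 fold change was 2.16 (SE 0.37, limma adjusted p = 0.0699), and FBN1 passed under 3 of 16 alternatives without the replicate block, with adjusted p from 0.027 to 0.228.
Fibrillin-2 (FBN2), best known from development, went the other way, at 1.81 and 3.24 scaled FPKM in the controls, against 1.35 and 0.92 with the hairpin, without overlap and with a log2 fold change of -0.70 (SE 0.33; -0.41 without shNC replicate 2). As a share of FPKM for both fibrillins together, FBN1 made up 77.6% and 78.2% in shNC and 96.8% and 97.9% in shPTPRN3. That share is a ratio within each library, so it does not depend on the scaling between libraries. Its exact permutation test over the 4 libraries gave the smallest two-sided p this design allows, 0.333.
MFAP2, a small microfibril protein that binds fibrillin, was at 10.9 and 4.51 scaled FPKM in the controls, against 23.8 and 18.0 with the hairpin. Its log2 fold change was 1.42 (SE 0.44, limma adjusted p = 0.223) and 0.86 without shNC replicate 2. After trends with transcript length and GC content were removed, its limma adjusted p was 0.0453. In that fit 1.29% of all tested genes were called, against 0.421% with the trends kept. EFEMP1 (fibulin-3) was at 1.33 and 0.73 against 7.23 and 2.04, with a log2 fold change of 1.32 (SE 0.49, limma adjusted p = 0.318). As with FN1, replicate 1 of shPTPRN3 set the size for EFEMP1, and without it the log2 fold change was 0.59.
Fibulin-5 (FBLN5), which brings elastin to microfibrils, was at 2.75 and 3.44 scaled FPKM in the controls, against 4.46 and 4.25 with the hairpin, a small gap with no overlap. EFEMP2 (fibulin-4), needed for crosslinking of elastin, was at 24.5 and 14.1 against 17.6 and 6.11. The groups overlapped for EFEMP2, since shPTPRN3 replicate 1 was above shNC replicate 2, and its log2 fold change of -0.77 (SE 0.52) was the lowest of the family but was -0.06 without shPTPRN3 replicate 2. EFEMP2 overlaps MUS81 on the opposite strand (7.39 to 14.6 FPKM). The kit marks strand, but whether the counting used it is not known from the sources used here. Elastin (ELN), the partner of the microfibrils in elastic fibres, was under 0.2 FPKM in every library, and EMILIN1, MFAP5, FBLN1 and FBLN2 were also under the filter.

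Of the 11 laminin and nidogen genes, 9 were tested and 3 were higher at an unadjusted p under 0.05, as were 5.66% of all tested genes. The median log2 fold change of the 9 was 0.41. Nidogen-2 (NID2, chr14:52004809-52069059), which links laminin to collagen IV, stood at 1.44 and 2.65 scaled FPKM in the controls, against 8.47 and 5.88 with the hairpin. The groups were apart, with a log2 fold change of 1.44 (SE 0.35, limma adjusted p = 0.146). NID2 overlaps RTRAF on the opposite strand, which was at 7.82 and 5.21 FPKM in the controls, against 6.04 and 4.82 with the hairpin. Its paralogue NID1 was at 0.0788 scaled FPKM or less in every library and was listed at 0 in shNC replicate 2, so nearly all nidogen FPKM was NID2.
Among beta chains, LAMB2 was higher in shPTPRN3 and LAMB1 was not. LAMB2, the beta chain of mature basement membranes, was at 11.7 and 16.2 scaled FPKM in the controls, against 28 and 31.8 with the hairpin, with a log2 fold change of 1.06 (SE 0.33, limma adjusted p = 0.234). LAMB1, the beta chain of most early laminins, was at 17.0 and 25.6 against 22.7 and 14.3, with overlap. LAMB2 thus made up 40.6% and 38.7% of LAMB1 and LAMB2 together in shNC and 55.2% and 68.9% in shPTPRN3, and LAMB1 led in both shNC libraries but in neither shPTPRN3 library (exact permutation p = 0.333). LAMB3, the beta chain of the epithelial laminin, was at 6.86 and 13.0 against 8.67 and 15.
The common gamma chain LAMC1 was at 19.9 and 39.3 scaled FPKM in the controls, against 52.7 and 58.2 with the hairpin. Its groups were apart, and the 2 controls differed from each other more than the shPTPRN3 libraries did. The log2 fold change was 0.96 (SE 0.41) and 0.49 without shNC replicate 1.
The alpha chains, which bind the receptors, differed from each other in direction. LAMA5, the widespread alpha chain of adult basement membranes, was at 1.13 and 1.99 scaled FPKM in the controls, against 3.86 and 3.44 with the hairpin (log2 fold change 0.88, SE 0.32, limma adjusted p = 0.302). LAMA4, typical of vessels and mesenchyme, was at 32.5 and 18.0 against 21.2 and 11.8, with overlap, a log2 fold change of -0.58 that was -0.17 without shNC replicate 1 or without shPTPRN3 replicate 2. LAMA1, the embryonic alpha chain, was at 8.97 and 23.1 against 17.8 and 21.4, within the range of the controls.
LAMA3, the alpha chain of epithelial laminin, was at 1.61 and 1.76 scaled FPKM in the controls, against 1.27 and 0.985 with the hairpin. The values of LAMA3 were low and close, with a log2 fold change of -0.34 (SE 0.29). The summed alpha chain FPKM was 44.4 and 45.2 in shNC and 44.8 and 37.9 in shPTPRN3, so the groups overlapped. LAMA4 and LAMA1 held most of that sum in every library, and LAMA5 made up 2.55% and 4.41% in shNC and 8.62% and 9.06% in shPTPRN3.
Among controls the mix of alpha chains also varied: LAMA4 was 73.2% of the sum in shNC replicate 1 and 39.8% in replicate 2. For LAMA1, LAMB1 and LAMB3 the sign of the difference turned when 1 library was left out.

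**Figure D3:**
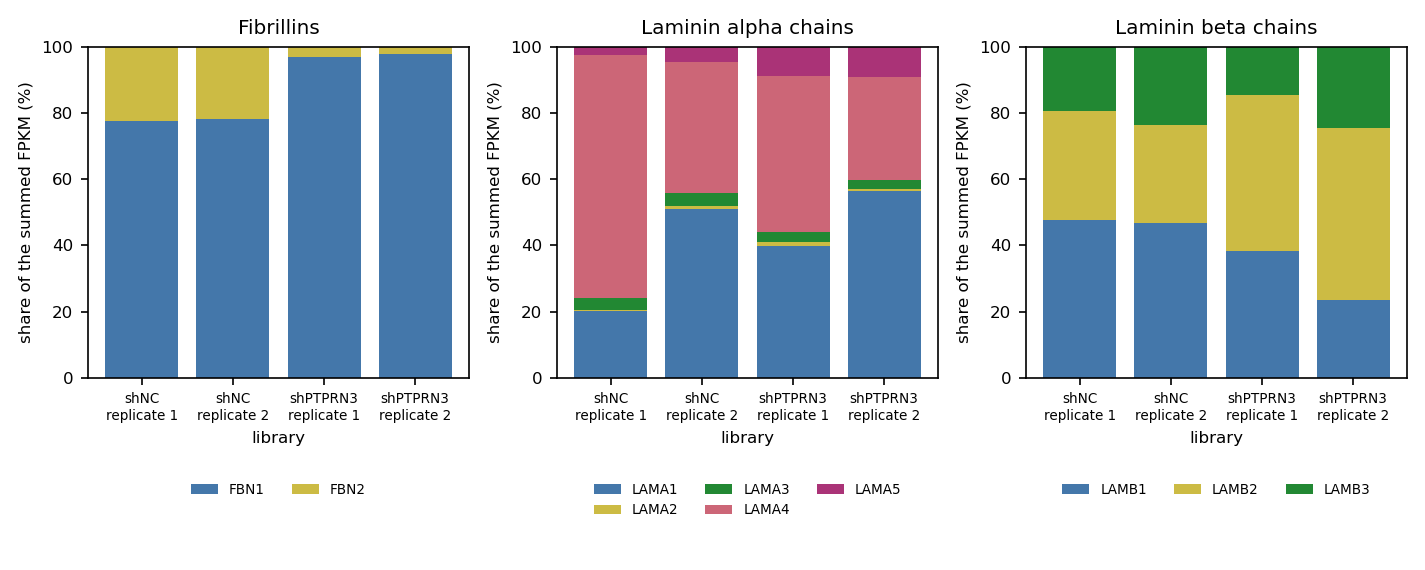
Share of FPKM (%) within each library held by each fibrillin, laminin alpha chain and laminin beta chain, as stacked bars. FBN1 takes 96.8% and 97.9% of the fibrillins in shPTPRN3, and the LAMB2 band is wider and the LAMB1 band narrower in both shPTPRN3 libraries.

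Of the 6 proteoglycan genes, 4 were tested, 3 were higher at an unadjusted p under 0.05, and the groups overlapped for none. Among all tested genes, 5.66% were higher at that level, 21.5% lay wholly above the controls and 23.1% wholly below. Agrin (AGRN, chr1:1020120-1056114), a heparan sulphate proteoglycan that binds laminin and dystroglycan, stood at 15.8 and 11.0 scaled FPKM in the controls, against 45.8 and 36.8 with the hairpin. The log2 fold change was 1.57 (SE 0.35, limma adjusted p = 0.115), and leaving out any 1 library left it between 1.32 and 1.81. Lumican (LUM, chr12:91102629-91111494), a small leucine-rich proteoglycan that spaces collagen fibrils, was at 3.21 and 3.24 against 8.38 and 7.80.
LUM was thus low but repeatable, at 3.22 ± 0.016 in shNC and 8.09 ± 0.405 in shPTPRN3 (SD, n = 2), with a log2 fold change of 1.11 (SE 0.30, limma adjusted p = 0.177). Perlecan (HSPG2), the large heparan sulphate proteoglycan of basement membranes, was at 0.581 and 1.11 scaled FPKM in the controls, against 2.85 and 1.81 with the hairpin. Its log2 fold change was 0.85, and it was 0.51 with length and GC trends removed and 1.39 at a pseudocount of 0.1. Versican (VCAN), a chondroitin sulphate proteoglycan that binds hyaluronan, was at 10.0 and 8.91 against 7.92 and 3.18. VCAN was the lowest member by log2 fold change (-0.78, SE 0.42), and that value was -0.22 without shPTPRN3 replicate 2. AGRN and HSPG2 thus lay above, and VCAN below, both control libraries. A difference between kinds of proteoglycan was not tested.

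The 10 members under the filter were POSTN, ELN, EMILIN1, MFAP5, FBLN1, FBLN2, LAMA2, NID1, BGN and DCN. FBLN2 was at 0.223 and 0.22 scaled FPKM in the controls, against 1.13 and 0.42 with the hairpin, the highest single value of the 10. Decorin (DCN), a small proteoglycan that binds collagen and TGF-beta, was at 0.149 and 0.0474 against 0.371 and 0.892. LAMA2, the alpha chain of muscle laminin, was at 0.171 and 0.348 against 0.62 and 0.265. Biglycan (BGN) was listed at 0 in both libraries numbered 2. The rest stayed below 0.4 scaled FPKM in every library, and no fold is given for the 10.

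Summed over all members, scaled FPKM was 385 and 469 in shNC and 1170 and 760 in shPTPRN3, a ratio of means of 2.26 (exact two-sided permutation p = 0.333, the smallest possible with 2 libraries against 2). FN1 alone was 29.1% of that sum in shPTPRN3 replicate 1 and 11.2% to 14.2% in the other 3 libraries. Without FN1 the sums were 342 and 402 against 830 and 668 (ratio 2.01), and without FN1 and SPARC the ratio was 1.64. The 4 families differed in size of ratio: 2.80 for the adhesive glycoproteins, 2.14 for the proteoglycans, 1.98 for the elastic fibre proteins and 1.35 for the laminins and nidogens. A few genes held most of each difference, given here as mean scaled FPKM in shNC and in shPTPRN3. FN1 (55 and 216) and SPARC (36.1 and 199) did so for the adhesive glycoproteins (235 and 657). AGRN (13.4 and 41.3) did so for the proteoglycans (27.1 and 57.9), and FBN1 (8.94 and 41.8) for the elastic fibre proteins (43.5 and 86). LAMC1 (29.6 and 55.5) did so for the laminins and nidogens (122 and 164). The difference between families was not tested.

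The libraries carry the numbers 1 and 2 in both groups, and the members' differences were larger between the libraries numbered 1. The median log2 difference of the 27 members was 1.10 between the libraries numbered 1 and 0.42 between those numbered 2. FN1 differed by 2.95 and 0.45 and TNC by 1.69 and 0.10, whereas SPARC differed by 2.57 and 2.27, AGRN by 1.48 and 1.65, LUM by 1.15 and 1.06 and MFAP2 by 1.06 and 1.78. For 22 of the 27 members both differences had the same sign. The labels do not say that a number marks a shared culture or day.

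**Figure D4:**
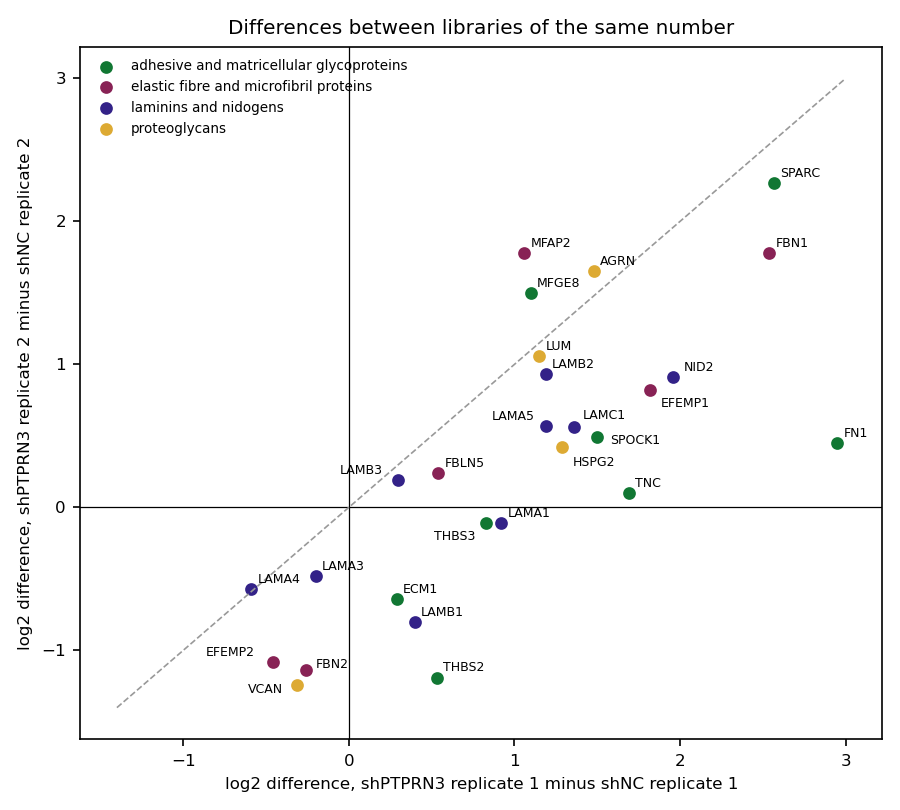
Log2 difference of each tested member between the libraries numbered 1 (x axis) and numbered 2 (y axis), shPTPRN3 minus shNC, coloured by family, with equality as a dashed line. SPARC, AGRN and LUM lie near the line, and FN1 (2.95 against 0.45) lies farthest below it.

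Members have long transcripts (median 5766 bases, against 3293 for all tested genes), and differences moved with length in 1 pair of libraries. Between the libraries numbered 1, the median of all tested genes was -0.27 for transcripts under 2000 bases and 0.28 for those of 6000 bases and over. Between those numbered 2 the same medians were 0.00 and -0.03. The 12 members of 6000 bases and over had medians of 1.24 and 0.26 in the 2 pairs. Those medians lay above the ones of all genes of like length, although FBN2, VCAN, LAMA3 and LAMA4 lay below them in both pairs. With the trends with length and GC content removed from each library, the median of the members was 0.58 in place of 0.88. FBN1, MFAP2 and SPARC then had an adjusted p under 0.05 (limma). In that fit 1.29% of all tested genes passed, against 0.421% with the trends kept. At unadjusted p under 0.05, 11% of all tested genes were higher, against 5.66%.

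**Figure D5:**
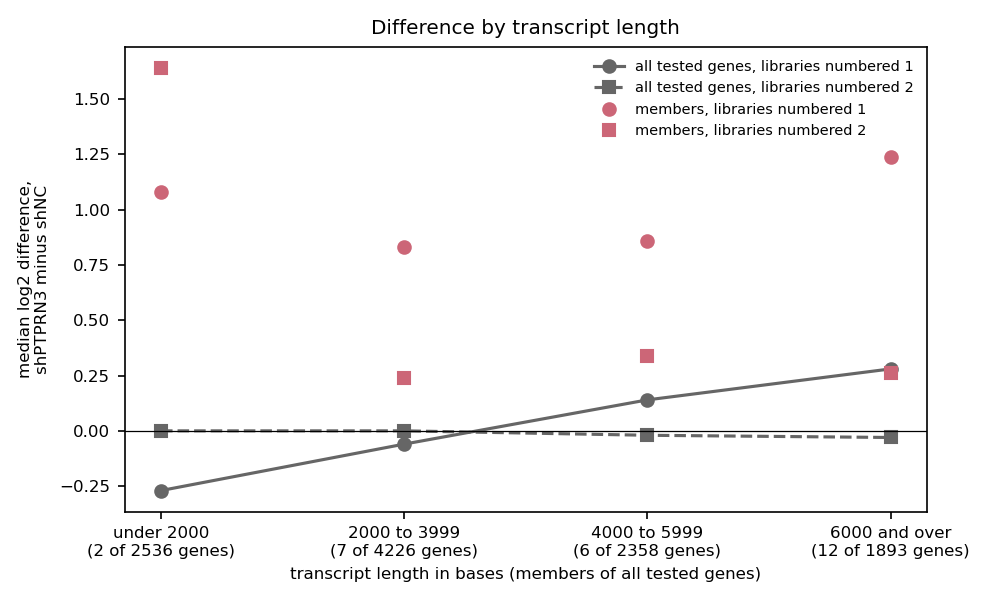
Median log2 difference, shPTPRN3 minus shNC, by transcript length in bases, for all tested genes (grey) and members (red), between the libraries numbered 1 (circles) and 2 (squares). Grey circles rise with length from -0.27 to 0.28 while grey squares stay near 0, and the red points lie above the grey ones of the same pair in every class, with only 2 members in the shortest class.

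Other genes of the same system were read from the same fit. Of 63 further non-collagen matrix genes, 22 were tested, 0 passed with limma, with 2 higher and 0 lower at unadjusted p under 0.05 and a median log2 fold change of 0.56. The 2 were LTBP1, which tethers latent TGF-beta to fibrillin and fibronectin (log2 fold change 1.03), and ABI3BP (1.30). Of 32 receptors for these proteins, 20 were tested and 0 passed, with 5 higher and 2 lower at unadjusted p under 0.05. Over all tested genes, 5.66% were higher and 7.79% were lower at that level, so the 2 lower receptors were near the share of all genes.
ITGA5, the alpha subunit of the main fibronectin receptor, was at 80.0 and 83.5 scaled FPKM in the controls, against 397 and 332 with the hairpin (log2 fold change 2.14, limma adjusted p = 0.0787). The laminin receptor subunit ITGA7 (1.21) and the syndecan SDC2 (1.06) were also higher by log2 fold change, while the syndecan SDC4 was lower (-1.36). Of 47 genes for the synthesis and editing of glycosaminoglycans, the sugar chains of proteoglycans, 34 were tested and 0 passed. At unadjusted p under 0.05 there were 5 higher and 2 lower genes, where 5.66% of all tested genes were higher and 7.79% were lower. The 2 lower genes were thus near the share of all genes, and the median log2 fold change of the list was 0.15. The sulphotransferases CHST7 (1.11) and NDST1 (1.10) were higher, and the heparan sulphate polymerase EXT1 (-1.07) was lower, as was UGDH, which makes the glucuronic acid donor (9.6 and 13.8 against 3.59 and 3.26 scaled FPKM).

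The cells were checked against markers. The astrocyte markers GFAP and AQP4 were listed at 0 in all 4 libraries, and S100B and SOX2 were at 0.245 scaled FPKM or less, whereas VIM was at 1193 to 2098 and CD44 at 84.6 to 97.7. Of the 9 glial and glioma markers 4 were tested (SLC1A3, NES, VIM and CD44), and their list summed to 2192 and 1807 against 1992 and 1294, nearly all of it VIM. NES (2.35 and 4.01 against 1.3 and 0.972) and SLC1A3 (6.78 and 12.6 against 5.5 and 4.96) were lower in both shPTPRN3 libraries. OLIG2 (0.422 and 0.329 against 0.872 and 0.554), SOX2 (0 and 0.0541 against 0.143 and 0.245) and CD44 (84.6 and 91.9 against 97.7 and 94.9) were higher in both. OLIG2 and SOX2 were under the filter. The log2 fold change was 0.13 (SE 0.36) for CD44, -0.94 (SE 0.33) for NES and -0.72 (SE 0.37) for SLC1A3. Among all tested genes, 21.5% lay wholly above the controls and 23.1% wholly below. A listed 0 in these tables can be a failed estimate. Of 8 fibroblast markers 5 were tested, and their list summed to 125 and 124 scaled FPKM in shNC and to 384 and 411 in shPTPRN3. Most of that sum was COL1A2 (67.4 and 86.5 against 323 and 369). COL1A1 (7.52 and 5.33 against 34.9 and 15) and PDGFRB (1.07 and 1.37 against 2.31 and 2.66) were also higher in both shPTPRN3 libraries, while PDGFRA and THY1 were under 0.1 in every library, and FAP and S100A4 had log2 fold changes of -0.37 and -0.90. Of 6 endothelial and 5 epithelial markers none reached the filter, with summed levels of 0.692 to 1.54 and 0.66 to 1.87. Of 5 pericyte and smooth muscle markers 3 were tested, with MYH11 listed at 0 throughout and summed levels of 22 and 24.3 against 32.8 and 17.6. Most of that sum was ACTA2, and RGS5 was higher in both shPTPRN3 libraries (0.52 and 0.885 against 1.64 and 2.38). Of 5 immune markers only CD68 was tested, and it made up nearly all of sums of 226 and 254 in shNC and 435 and 327 in shPTPRN3. CD68 was higher in both shPTPRN3 libraries, and the part of these markers in the members' result was not tested.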

How the data were processed

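The kit for the 4 libraries kept strand, per the labels' protocols. The authors' tools were Cufflinks 2.2.1.2, STAR 2.6.0b-1 and FastQC 0.72, on hg38, per the submitters' processing notes. Neither the annotation nor the strand setting is named in the sources used here. Each deposited table lists FPKM per gene with an interval, per the file headers; they depend on the assumed transcript length and on how fragments are shared between overlapping genes. Low values fell on whole-fragment steps (log2 tolerance 0.004) in only 40.8% to 74.3% of cases, so counts were not recovered.

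Rows not marked OK were dropped (651 of 33646) and the rest summed per symbol. FPKM were scaled by median ratio over 9988 genes. Testing was limited to genes averaging 1 FPKM or more, with limma 3.58.1 (R 4.3.3, eBayes with trend, two-sided) on log2(scaled FPKM + 1), with Benjamini-Hochberg adjustment over 11394 genes at 0.05; the pseudocount of 1 understates changes of low genes. The fit recovered the mean of set shifts in simulated data. Those data had the same SD for every gene and independent libraries, so the error rate in data like these was not checked. Sums and shares were compared with exact permutation tests. Lengths and transcripts are from GENCODE 29. Python 3.11.15, pandas 2.3.3, numpy 2.4.6, scipy 1.17.1 and matplotlib 3.10.9 were used.

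The members and lists were chosen with earlier results of these data known. Tested members are given in every library, with an adjusted p for the 10 smallest p; of each other list up to 4 genes with the smallest p under 0.05 are named. COL1A2, CD68 and other markers were named after their values were seen. Alternatives covered scaling, pseudocount, filters, row status, eBayes settings, replicate number, zeros, length and GC trends, and leaving out each library.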

Additional observations from a re-analysis of the deposited data

How the results depend on the processing

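The median log2 fold change of the members stayed positive in every alternative run. It was 0.39 with no filter on low values and 0.49 to 1.04 when 1 library was left out. Of the 27 members, 21 kept their sign in the 16 alternatives without the replicate block, and the other 6 turned only when a library was left out. Leaving out 1 library gave log2 fold changes of -0.72 to 0.38 for ECM1, -0.23 to 1.04 for LAMA1, -0.52 to 0.13 for LAMB1, -0.17 to 0.66 for LAMB3, -0.80 to 0.15 for THBS2 and -0.07 to 0.80 for THBS3.

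All genes called were 48 in the comparison as reported. They were 31 with FPKM as deposited, 30 with TPM, 23 at a pseudocount of 0.1, 0 without the filter (limma gave 2163 at unadjusted p under 0.05), 8 with a mean of at least 5 FPKM, 26 without an eBayes trend, 160 with robust eBayes, 219 without genes listed at 0, 147 with length and GC trends removed and 58 to 199 when 1 library was left out. Members called were 0 as reported, 1 (SPARC) with TPM and with quantile normalization, 2 (FBN1 and SPARC) with robust eBayes and without genes listed at 0, 3 with length and GC trends removed and 0 when any 1 library was left out. Fits without a library leave 1 group with a lone library, assumed to vary like the other group, so those counts are no test of stability. Members higher at an unadjusted p under 0.05 were 12 with length and GC trends removed, against 13 as reported. Over all tested genes 11% were higher at that level with the trends removed, against 5.66%. Members lower at that level were 1 with length and GC trends removed, against 0.

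With the replicate number as a block (replicate block), 2168 genes and 16 members were called, 14 higher and 2 lower (EFEMP2 and VCAN), and 4 members were lower at an unadjusted p under 0.05. Under the block 19% of all genes were called and 31.7% had an unadjusted p under 0.05, 14.9% in the higher direction. Same-numbered libraries deviated together (r = 0.519 over genes, 2 pairs), which is too few pairs to show that the numbers pair the samples. Precision is limited by 2 libraries a group and by depth known only from interval widths. The cause of the differences between settings was not tested.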
